A study of Mus musculus with 3 samples.

Results

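S100 proteins are small calcium-binding proteins with paired EF-hand motifs, and 9 of their genes were followed here in single cells of day 5 implants: S100a1, S100a4, S100a6, S100a8, S100a9, S100a10, S100a11, S100a13 and S100b. They were found by symbol among 31053 genes in the count files, and all 9 were present in each of the 3 libraries. Over all stromal cells, S100a4, S100a6, S100a10, S100a11 and S100a13 were lower in the library given BMP2 and vehicle than in that of Matrigel alone. In stromal cells with Pi16 but neither Aqp1 nor Acan detected, S100a4 and S100a6 were instead higher in that library. In macrophages S100a4, S100a6, S100a10 and S100a11 were higher in the same library. The library given palovarotene lay near the Matrigel-only library for most of these genes over all stromal cells. For S100a4 in stromal cells with none of Pi16, Aqp1 and Acan it lay below, at 244 against 519 CPM. In macrophages it lay between the other libraries, nearer to Matrigel-only for S100a4, S100a6 and S100a10 and about midway for S100a11.

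Most S100 proteins form dimers that change shape when calcium binds and then grip a partner such as an annexin, a myosin heavy chain or a cytoskeletal protein. S100a10, the light chain of annexin A2, is the known exception that holds its partner without calcium. Several members are also released from cells and act on the receptors Ager and Tlr4, and S100a8 with S100a9 forms calprotectin, a major cytosolic protein of neutrophils. S100a4 has long been used as a fibroblast marker although macrophages carry it as well, and S100b is a classical marker of glia and of cartilage cells.

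The implants were subcutaneous masses in female CD-1 mice of 6 to 8 weeks, taken at day 5 and freed into single cells with dispase. The Matrigel-only group received the gel with no BMP2 and no gavage, the Vehicle group received recombinant human BMP2 in the gel with corn oil and DMSO by mouth, and the Palo group received BMP2 with palovarotene, an agonist of the nuclear retinoic acid receptor gamma, at 4 mg/kg. Each group is 1 library that pools several masses, so animals could not be told apart, no test between groups was possible, and every interval given is a 95% interval of counting error only. Matrigel-only against Vehicle also differs in the gavage, so BMP2 and the oral vehicle cannot be told apart. Vehicle enters both the comparison with Matrigel-only and the comparison with Palo, and a value peculiar to that library would move both in opposite directions.

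The 3 libraries held 6065 to 9249 barcodes and 44252421 to 46901673 UMIs (unique molecular identifiers, each marking 1 captured transcript), and 8728 Matrigel-only, 5478 Vehicle and 7297 Palo cells passed the limits on genes and mitochondrial UMIs. Between 11 and 21 barcodes were shared by any 2 libraries. A cell was called stromal when Col1a1, Col1a2, Col3a1, Dcn and Lum made up at least 1% of its UMIs, which took 2085, 1373 and 1184 cells. A cell outside that class was called a macrophage when it had a UMI of Csf1r or C1qa, which took 5812, 3253 and 5661 cells. Of the listed markers that the rule did not use, Pdgfra and Prrx1 summed to 462 to 971 CPM (counts scaled to a total of 1000000 UMIs) in stromal cells and to 6.60 to 11.2 CPM in macrophages. The 6 macrophage markers outside the rule, such as C1qb and Adgre1, summed to 6983 to 8419 CPM in macrophages and to 99.0 to 318 CPM in stromal cells. Median depth was 9082, 17114 and 12955 UMIs per stromal cell and 3090.5, 3646 and 4254 per macrophage, so shares of cells with a UMI were taken after thinning.

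On mm10, 8 of the genes lie on chromosome 3 and S100b lies on chromosome 10. From S100a1 (chr3:90511034-90514392, minus strand) to S100a9 (chr3:90692632-90695721, minus strand) the first group spans 185 kb and holds S100a13 (chr3:90514435-90524581, plus strand), S100a4 (chr3:90603771-90606045, plus strand), S100a6 (chr3:90612882-90624181, plus strand) and S100a8 (chr3:90668978-90670035, plus strand). S100a11 (chr3:93520488-93526287, plus strand) and S100a10 (chr3:93555080-93564643, plus strand) form a second group 2.82 Mb away, and S100b is at chr10:76253853-76261159 on the plus strand. S100a4 ends 6.84 kb before S100a6 begins, and the starts of S100a1 and S100a13 face each other 43 bases apart. The predicted gene Gm42674 overlaps S100a4 on the same strand and had 0 UMIs in all 3 libraries, and reads that match both could have been dropped by the counting.

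RefSeq sequence upstream of the start was found for 8 of the 9 members, all but S100a10 (GRCm38.p6, 250 bases before the start). The windows of 4 members are shown, since S100a4, S100a6 and S100a11 moved together in both classes of cells and S100b moved apart from them in stromal cells. The search on both strands took the AP-1 letters TGANTCA, the GC box GGGCGG, the box CCAAT, the TATA letters TATAAA, the hypoxia letters ACGTG or GCGTG, the Sox letters ACAAT and the nuclear receptor letters AGGTCA or GGGTCA, and capitals mark every match. Neighbouring matches can overlap. The windows are chr3:90603520-90603769 for S100a4, chr3:90612644-90612893 for S100a6, chr3:93520246-93520495 for S100a11 and chr10:76253586-76253835 for S100b, all on the plus strand.

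S100a4: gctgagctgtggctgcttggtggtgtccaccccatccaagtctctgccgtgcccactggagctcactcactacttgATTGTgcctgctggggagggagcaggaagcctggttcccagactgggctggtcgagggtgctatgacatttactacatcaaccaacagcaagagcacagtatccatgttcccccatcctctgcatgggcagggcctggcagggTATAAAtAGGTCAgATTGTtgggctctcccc

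S100a6: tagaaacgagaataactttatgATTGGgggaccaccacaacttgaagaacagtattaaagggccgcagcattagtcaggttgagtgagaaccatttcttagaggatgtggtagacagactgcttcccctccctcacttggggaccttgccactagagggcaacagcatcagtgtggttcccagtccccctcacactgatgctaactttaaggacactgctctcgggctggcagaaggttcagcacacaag

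S100a11: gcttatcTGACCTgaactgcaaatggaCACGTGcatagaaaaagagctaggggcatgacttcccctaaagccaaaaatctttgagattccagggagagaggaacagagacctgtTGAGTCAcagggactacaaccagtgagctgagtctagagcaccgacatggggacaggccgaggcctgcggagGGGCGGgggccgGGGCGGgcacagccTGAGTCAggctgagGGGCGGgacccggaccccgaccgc

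S100b: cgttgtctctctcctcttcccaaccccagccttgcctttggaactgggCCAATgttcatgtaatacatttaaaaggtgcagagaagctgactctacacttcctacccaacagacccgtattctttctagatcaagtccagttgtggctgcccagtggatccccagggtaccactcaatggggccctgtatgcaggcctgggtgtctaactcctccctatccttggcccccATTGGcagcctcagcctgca

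The S100a4 window held TATAAA starting 31 bases before the start, followed at 24 bases by AGGTCA, the core letters of nuclear receptor sites, and 2 matches to ACAAT. The letters TATAAA occur in 12.4% of the 32851 promoter windows searched, AGGTCA in 14.02% and ACAAT in 27.7%. The S100a11 window held 2 matches to TGANTCA, the AP-1 letters, which occur in 6.75% of windows, with 3 to GGGCGG (32.7%), 1 to AGGTCA and 2 overlapping matches to ACGTG (16.6%). The S100a6 window held 1 match to CCAAT and the S100b window 2, a motif of 33.8% of windows. S100a4, S100a6 and S100a11 shared none of the 9 searched motifs in all 3 windows, and such matches describe letters, not binding.

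S100a4, which binds non-muscle myosin heavy chains, stood at 1060.2 CPM in stromal cells of the Matrigel-only library, at 598 in the Vehicle library and at 1126 in the Palo library. S100a6, or calcyclin, a partner of annexins and of the calcyclin-binding protein, stood at 6743, 3379.8 and 7075 CPM in the same order. In both genes the Vehicle library was the low one, and Palo was 1.06-fold and 1.05-fold the level of Matrigel-only. The log2 ratio of Vehicle over Matrigel-only was -0.83 (95% interval -0.86 to -0.80) for S100a4 and -0.996 (-1.009 to -0.984) for S100a6. Palo over Vehicle gave 0.91 (0.88 to 0.95) and 1.07 (1.05 to 1.08). With the Pi16 and Aqp1 makeup of the stroma reweighted to that of Matrigel-only, on the scale with 5 CPM added, the S100a4 ratio of Palo over Vehicle was 0.05. Palo over Matrigel-only was then -0.31 for S100a4 and -0.07 for S100a6. Without cells with an Acan UMI the S100a4 ratio of Palo over Vehicle was 0.30. Without those cells the Vehicle over Matrigel-only ratios were -0.20 for S100a4 and -0.35 for S100a6, and in stromal cells with no Aqp1 UMI S100a4 was higher in Vehicle than in Matrigel-only, at 440 against 373 CPM.

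S100a10 measured 1506, 868 and 1663 CPM in the same order, with a log2 ratio of -0.79 for Vehicle over Matrigel-only and 0.94 for Palo over Vehicle. S100a11, which binds Anxa1, measured 1493, 1168 and 1630.2 CPM, with smaller ratios of -0.35 and 0.48. S100a13, which takes part in the unconventional release of Fgf1 and Il1a, measured 527, 305 and 449 CPM, with ratios of -0.79 and 0.56. All 5 of these genes were thus lowest in the Vehicle stroma, with intervals that did not reach 0. S100a13 in Palo remained below Matrigel-only by 0.23 on the log2 scale (0.19 to 0.27).

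S100a1, known for its action on calcium channels of striated muscle, went the other way at 42.1, 63.5 and 46.0 CPM, a log2 ratio of 0.59 (0.47 to 0.72) for Vehicle over Matrigel-only and -0.46 (-0.59 to -0.34) for Palo over Vehicle. S100b counted 170, 503 and 62 UMIs, or 8.48, 21.3 and 3.92 CPM, which is 2.51-fold higher in Vehicle than in Matrigel-only and 5.44-fold lower in Palo than in Vehicle. S100b was also lower in Palo than in Matrigel-only, by 1.11 on the log2 scale (0.69 to 1.56). S100a8 and S100a9 had 5 and 0 UMIs in the Matrigel-only stroma, 69 and 94 in that of Vehicle and 2 and 1 in that of Palo, so outside the Vehicle library both were at 0.249 CPM or less.

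**Figure D1:**
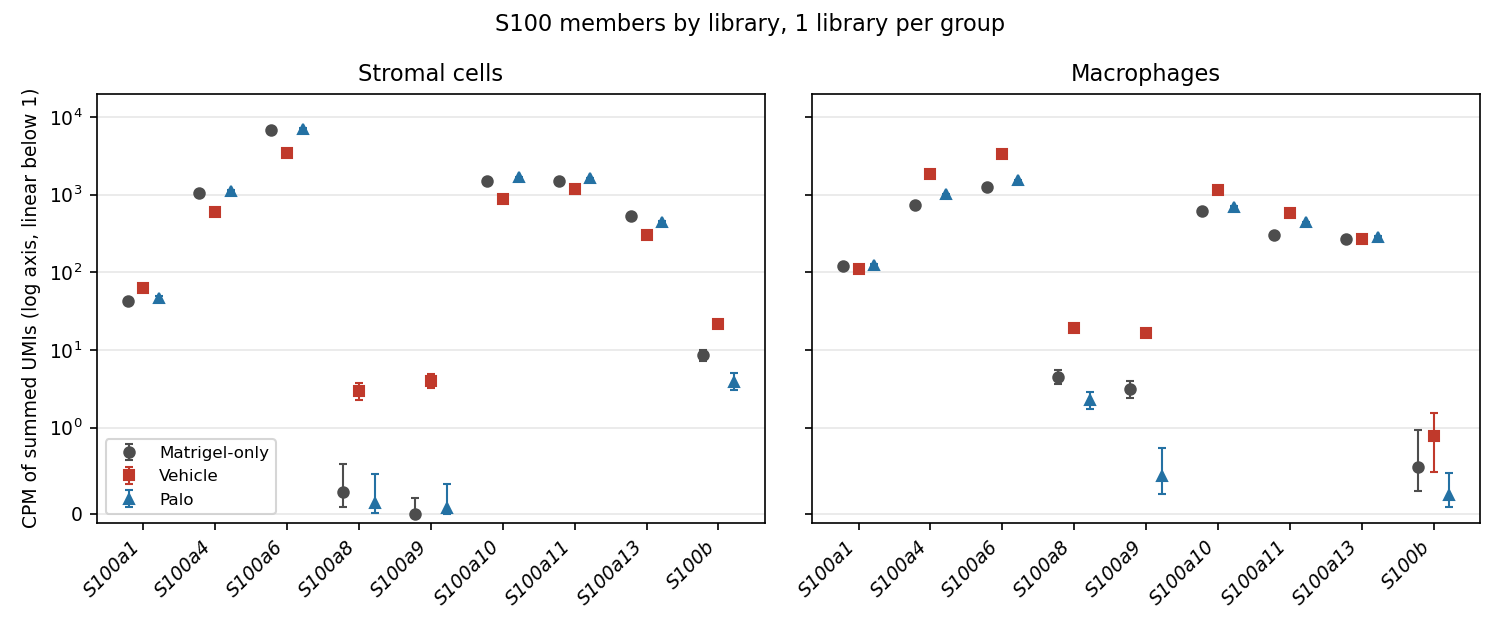
CPM of summed UMIs for each S100 member in stromal cells (left) and macrophages (right), with 1 point per library and exact Poisson 95% intervals, on a log axis that is linear below 1. S100a4, S100a6, S100a10 and S100a11 are lowest in the Vehicle library over all stromal cells together and highest in it among macrophages.

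A 2-fold limit was set on the log2 ratio of CPM with 5 added, for genes of at least 5 CPM in either library, and 7 of the 9 members met that level in stromal cells in all 3 comparisons. For Vehicle over Matrigel-only 0 members passed in either direction, where 3.68% of 10755 genes were higher and 7.04% lower, and the members' median was -0.78 against -0.04 for all genes. For Palo over Vehicle S100a6 passed as higher (4.40% of 10579 genes) and S100b as lower (3.73%), with a median of 0.55 against 0.01. For Palo over Matrigel-only 0 members passed, where 0.277% of genes were higher and 0.946% lower. S100a6 lay at the limit in the first comparison, at -0.995, and S100b at 0.966 because 5 CPM were added to a low level. These counts rest on so few members near a limit that they moved with several settings.

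In macrophages S100a4, S100a6, S100a10 and S100a11 took the direction opposite to that over all stromal cells, between the same libraries. From Matrigel-only through Vehicle to Palo, S100a4 measured 741, 1830.0 and 1004 CPM, and S100a6 measured 1266, 3284 and 1527. S100a10 measured 623, 1144 and 692 CPM, and S100a11 measured 305, 573 and 438. Vehicle was the high library for all 4, with log2 ratios over Matrigel-only of 1.30 (1.27 to 1.33), 1.37 (1.35 to 1.40), 0.88 (0.84 to 0.91) and 0.91 (0.86 to 0.95). Palo over Vehicle gave -0.87, -1.10, -0.72 and -0.39. Palo stayed above Matrigel-only for S100a4 by 0.44, for S100a6 by 0.27, for S100a10 by 0.15 and for S100a11 by 0.52, so the return toward Matrigel-only was least complete for S100a11.

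S100a1 and S100a13 differed little between the macrophage libraries. S100a1 lay at 120.2, 110.1 and 123 CPM and S100a13 at 271, 265 and 287 CPM, and every ratio between libraries of these genes was within 0.16 on the log2 scale. S100b had 11, 13 and 6 UMIs in macrophages, at most 0.906 CPM, and no difference was detectable at that depth between Vehicle and Matrigel-only. Palo over Vehicle was -2.05 on the log2 scale (-3.73 to -0.55), lower as in stroma.

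**Figure D2:**
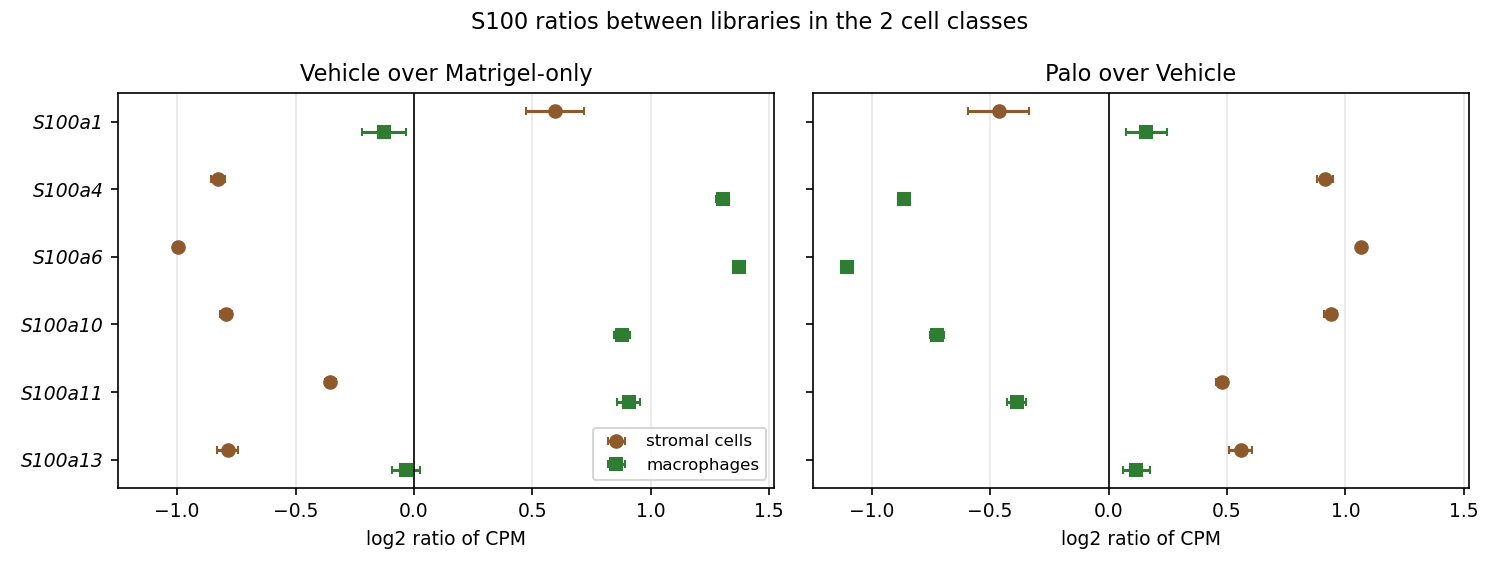
Log2 ratios of CPM between libraries for 6 S100 members, over all stromal cells (circles) and all macrophages (squares), with exact 95% counting intervals. For S100a4, S100a6, S100a10 and S100a11 the circles and squares lie on opposite sides of 0 in both comparisons, and the Vehicle library is part of both.

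By the same 2-fold limit S100a4, S100a6, S100a8 and S100a9 passed as higher in macrophages for Vehicle over Matrigel-only, 4 members beside 2.77% of 9920 genes, and 0 passed as lower beside 1.23%. For Palo over Vehicle S100a6, S100a8 and S100a9 passed as lower (3.30% of 9819 genes) and 0 as higher (0.906%). The S100a9 calls of both comparisons were lost without cells with at least 3 neutrophil markers, with Csf1r and C1qa both required, or with at least 2 UMIs of the pair. With stromal cells that had Csf1r or C1qa counted as macrophages, the Vehicle over Matrigel-only ratio of S100a4 was 0.82 and that of S100a6 0.53, on the scale with 5 CPM added, so both calls were lost there and the directions kept. For Palo over Matrigel-only 0 members passed, beside 0.443% higher and 0.721% lower. The median of all macrophage genes was -0.14 for Palo over Vehicle and -0.14 for Palo over Matrigel-only. TMM scaling raised every ratio of Palo over Vehicle by 0.20, which took S100a6 below the limit but left its direction. The TMM factors, 1.04 for Matrigel-only and 0.92 for Palo, raise the ratios of Palo over Matrigel-only as well.

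Set side by side within a library, stromal cells exceeded macrophages in S100a6, S100a10, S100a11 and S100b in Matrigel-only (18.3% of genes were at least 2-fold higher in stroma there and 14.2% lower). In Palo S100a6, S100a10 and S100a11 passed (19.6% and 14.2%), and S100a1 was the lower member in both libraries. In Vehicle, with 17.9% of genes higher and 16.4% lower, S100a11 and S100b were higher in stroma while S100a4, S100a8 and S100a9 were lower. S100a6 shows the change most plainly, with log2 ratios of stroma over macrophages of 2.41, 0.04 and 2.21 for Matrigel-only, Vehicle and Palo. S100a4 gave 0.52, -1.61 and 0.17. Among all passing cells S100a6 measured 3913, 3342 and 3523 CPM. Stromal cells held 81.6%, 59.4% and 71.1% of all S100a6 UMIs and 55.1%, 32.5% and 37.9% of all S100a4 UMIs.

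The 2 genes were distributed differently over stromal cells. With each cell thinned to 3100 UMIs, S100a6 was detected in 99.9%, 96.7% and 99.9% of stromal cells, and its median level was 53.2, 22.7 and 55.3 per 10000 UMIs of the cell. S100a4 was detected in 49.7% (47.4 to 52.0), 50.2% (47.4 to 52.9) and 49.9% (47.0 to 52.9) of thinned stromal cells, or 62.9%, 75.6% and 67.7% without thinning. Its median cell likewise hardly differed, at 1.53, 1.78 and 1.61 per 10000 UMIs, whereas the 90th percentile was 27.6, 15.3 and 33.0. Over all stromal cells together, the libraries thus differed in S100a4 at the 90th percentile and little at the median. Subsets with low levels still differed, such as cells with Pi16 alone at 279, 688 and 286 CPM. The 10% of stromal cells with most S100a4 UMIs held 66.1%, 56.9% and 59.0% of its UMIs. In basophils of the Vehicle library S100a4 stood at 29.2 CPM, from 4 UMIs.

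Macrophages showed another form, in which the share of cells and the median both differed. Thinned to 1400 UMIs, 39.2%, 62.6% and 55.6% of macrophages had an S100a4 UMI and 51.8%, 76.6% and 64.6% an S100a6 UMI. The corresponding unthinned shares were 51.1%, 71.6% and 74.3% for S100a4 and 64.7%, 85.2% and 81.7% for S100a6. The median macrophage carried 1.75, 9.82 and 6.24 S100a4 UMIs per 10000 and 4.59, 21.8 and 8.92 of S100a6. For S100a10 the thinned shares were 44.1%, 64.9% and 48.3%, and for S100a11 they were 25.9%, 41.0% and 34.8%. At this depth the Vehicle library had the largest share for all 4 genes, with intervals that did not overlap those of the other libraries. Thinned to 3100 UMIs instead, the S100a4 shares were 60.0%, 72.8% and 75.5%, so the order of Vehicle and Palo by share turned with the depth, and no order is read from it.

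Stromal cells were next split by detection of Pi16, a secreted protein of adventitial fibroblasts, Aqp1, a water channel, and Acan, the core protein of the cartilage proteoglycan aggrecan. Pi16 was detected in 1153, 167 and 368 stromal cells, Aqp1 in 321, 271 and 323 and Acan in 1, 779 and 4, so that Acan+ cells could be studied in the Vehicle library only. Of the 271 Aqp1+ Vehicle cells, 164 also had an Acan UMI. Detection follows depth as well as level, and Aqp1+ cells were the deeper ones, with median UMIs of 13911, 21067 and 16136 against 8479, 16296 and 11974 in Aqp1- cells.

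Cells with Aqp1 carried more S100a4 in every library. Aqp1+ over Aqp1- cells gave 3279.6 against 373 CPM, 1077 against 440 and 2835 against 258 in the order Matrigel-only, Vehicle and Palo, log2 ratios of 3.13, 1.29 and 3.46. S100a6 was higher in Aqp1+ cells by 1.02, 0.51 and 1.15, and S100a10 by 1.49, 0.54 and 1.61. S100a4, S100a6 and S100a10 passed 2-fold in Matrigel-only, where 1.90% of genes did, and in Palo (2.08%), and S100a4 alone passed in Vehicle (0.262%). With Aqp1-only cells set against cells with none of the 3 genes, S100a6 in Matrigel-only was at 0.90 and no longer passed, and S100a13 in Palo passed as well. S100b went the other way, by -3.68 (-5.58 to -2.30) in Matrigel-only, by -0.54 (-0.88 to -0.21) in Vehicle and by -1.78 (-3.06 to -0.70) in Palo. Aqp1+ cells held only 4, 93 and 8 S100b UMIs in the same order. In Matrigel-only S100b was the 1 member to pass as lower beside 5.14% of genes, at -1.44 with 5 CPM added. S100a11 and S100a13 were higher in Aqp1+ cells in each library too, by 0.16 to 0.82 and by 0.18 to 0.78. Across single stromal cells Aqp1 and S100a4 correlated at r = 0.64, 0.25 and 0.73, a description in which both genes share each cell's depth.

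Taking cells with Aqp1 and neither of the other markers (283, 97 and 291 cells), S100a4 measured 3309, 1727 and 2957 CPM. S100a10 in these cells measured 2975, 1157 and 3059 CPM, S100a6 10875, 6935 and 11396, and S100a11 2244, 1418 and 2241. Palo and Matrigel-only were close and Vehicle low in all 4, with log2 ratios of Vehicle over Matrigel-only of -0.94 for S100a4, -1.36 for S100a10, -0.65 for S100a6 and -0.66 for S100a11. The lower Vehicle level of these genes was thus also found within Aqp1+ cells that had no detected Acan.

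Cells with Pi16 alone told apart S100a4 from the stromal total. There S100a4 measured 279, 688 and 286 CPM, a log2 ratio of 1.30 for Vehicle over Matrigel-only and -1.27 for Palo over Vehicle. Cells with none of the 3 genes gave 519, 651 and 244 CPM, with ratios of 0.33 and -1.41. In these sets, and in Aqp1- cells as a whole at 373, 440 and 258 CPM, Vehicle was the high library for S100a4, opposite to its direction over all stromal cells. S100a6 in Pi16-only cells measured 5172, 6472 and 5063 CPM, again highest in Vehicle, whereas in cells with none of the 3 it measured 5814, 4266 and 5015. Within a library Pi16+ cells had less S100a4 than Pi16- cells in Matrigel-only, by -1.94, and in Palo, by -1.65, the 1 member to pass as lower in each (2.14% and 1.38% of genes), while in Vehicle the log2 ratio was 0.39. The Pi16- side of that comparison holds the Aqp1+ cells. Against cells with none of the 3 genes, Pi16-only cells gave -0.89 in Matrigel-only and 0.23 (0.11 to 0.34) in Palo, so neither passed and the direction in Palo turned.

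**Figure D3:**
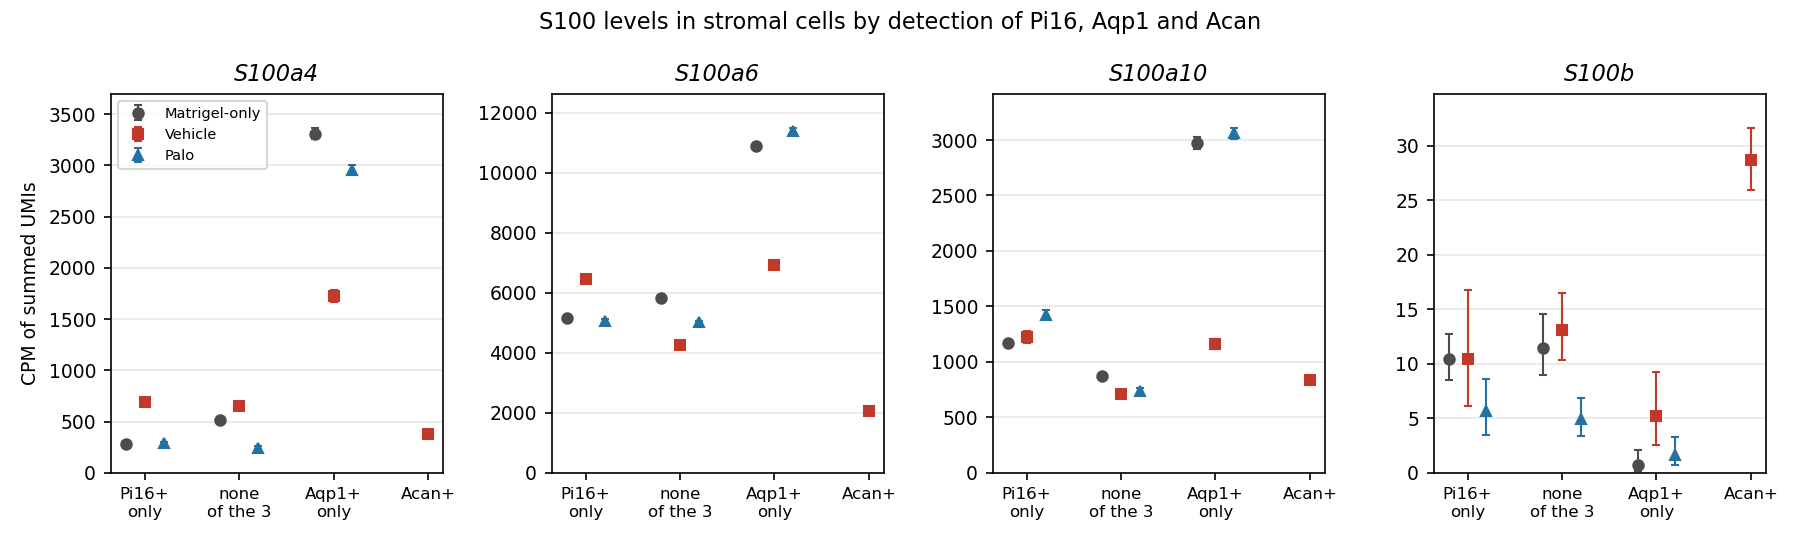
CPM of S100a4, S100a6, S100a10 and S100b in stromal cells with Pi16 alone, with none of Pi16, Aqp1 and Acan, with Aqp1 alone, and with Acan (Vehicle only), 1 point per library with exact Poisson 95% intervals. S100a4, S100a6 and S100a10 peak in Aqp1+ cells of Matrigel-only and Palo, and S100b peaks in Acan+ cells.

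Acan+ cells of the Vehicle library made up 56.7% of its stromal cells and carried less of most members. S100a4 was at 374 CPM in Acan+ and 920.2 in Acan- cells, a log2 ratio of -1.30, and S100a6 was at 2060.1 and 5281, a ratio of -1.36. S100a13 differed by -0.77, S100a11 by -0.25 and S100a10 by -0.12. S100b alone passed 2-fold as higher, at 28.7 against 10.8 CPM (log2 ratio 1.41, 1.099 to 1.739), where 1.80% of genes did. S100a4, S100a6, S100a8 and S100a9 passed as lower (2.54% of genes), the last 2 on 7 and 4 UMIs in Acan+ cells. In Acan- cells S100a8 had 62 UMIs in 4 cells and S100a9 had 90 UMIs in 9 cells. With Acan+ cells left out of all libraries, Vehicle over Matrigel-only was -0.20 for S100a4, -0.35 for S100a6, -0.38 for S100a13 and 0.34 for S100b, while S100a10 kept -0.73. The subsets were unlike in S100a10, at 1224 CPM in Vehicle against 1171 in Matrigel-only with Pi16 alone. With none of the 3 genes these values were 712 against 874, and with Aqp1 alone 1157 against 2975.

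Counting Acan UMIs per Vehicle stromal cell gave an ordered picture, in bins chosen after the data were seen. S100a6 stood at 5281 CPM with 0 Acan UMIs, 5237 with 1 to 2, 2494 with 3 to 9, 1720.0 with 10 to 49 and 1140 with 50 or more. S100a4 stood at 920.2, 956, 446, 264 and 267 CPM, and S100a13 at 404, 389, 252, 218 and 196. S100b stood at 10.8, 6.61, 12.7, 29.4 and 41.0 CPM. Cells with 1 to 2 Acan UMIs thus resembled cells without any, and the levels of S100a4, S100a6 and S100a13 were lower from 3 UMIs on, while S100b was higher from 10 on. S100a10 had no such order, at 909.8, 984, 628, 800 and 896 CPM. The bins held 594, 105, 92, 361 and 221 cells.

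**Figure D4:**
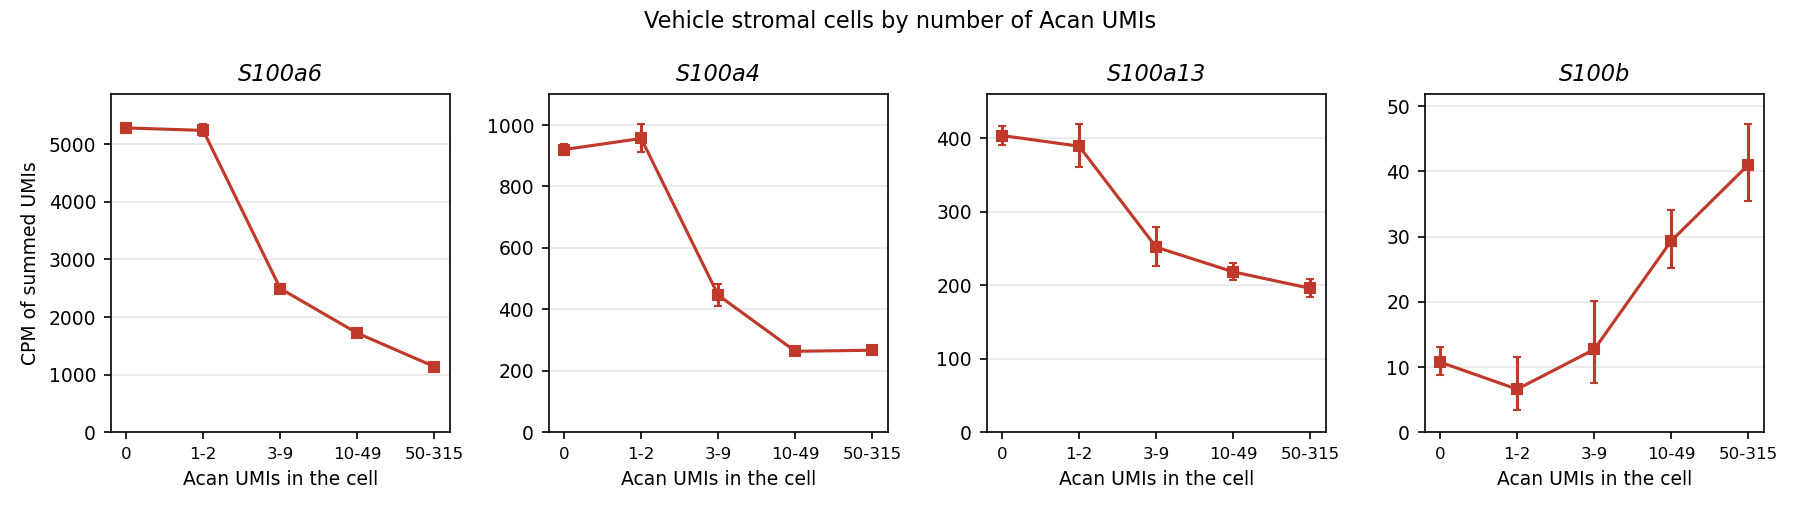
CPM of S100a6, S100a4, S100a13 and S100b in Vehicle stromal cells binned by their number of Acan UMIs, with exact Poisson 95% intervals. S100a6 goes from 5281 CPM at 0 Acan UMIs to 1140 at 50 or more, and S100b from 10.8 to 41.0.

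S100b UMIs lay in few stromal cells. Thinned to 3100 UMIs, 3.01%, 5.93% and 1.29% of stromal cells had one (6.43%, 19.4% and 4.22% without thinning), against 0.237%, 0.311% and 0.0713% of macrophages thinned to the same depth. Of the 503 S100b UMIs in Vehicle stroma 399 were in Acan+ cells. Cells with at least 2 Schwann cell markers held 0, 17 and 0 of the stromal S100b UMIs, and the defining Schwann marker Sox10 was at 0 in stromal cells of all 3 libraries, with the 5 listed markers summing to 4.62 to 8.98 CPM.

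Macrophages were split after the data were seen by further genes, of which Ms4a7 marks mature tissue macrophages, Ccr2 cells of monocyte origin and Retnla alternatively activated cells. Ms4a7+ macrophages carried less S100a4 than Ms4a7- macrophages in each library, at 303 against 1282, 1155 against 2842 and 652 against 1352 CPM. S100a6, S100a10 and S100a11 were lower in Ms4a7+ cells in the 3 libraries as well, by 1.27 to 2.13, 0.643 to 1.102 and 1.396 to 1.762 on the log2 scale. Ccr2+ macrophages carried more S100a4, S100a6 and S100a11 in each library, by 0.60 to 1.55, 0.794 to 1.4997 and 0.94 to 1.23. Mmp12+ cells, with a secreted macrophage elastase, were higher in the same 3 genes and in S100a10.

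S100a4 and S100a6 were higher in Vehicle than in Matrigel-only in each of these subsets. Vehicle over Matrigel-only for S100a6 was 2.06 in Ms4a7+ and 1.20 in Ms4a7- cells, 1.25 in Ccr2+ and 1.71 in Ccr2- cells, and 0.94 in Retnla+ and 1.98 in Retnla- cells. For S100a4 the same ratios were 1.93, 1.15, 1.18, 1.62, 0.56 and 1.90. The ratio was thus smallest in Retnla+ cells, which were 32.8%, 7.48% and 35.8% of passing cells. Macrophages with Ly6c2, a marker of inflammatory monocytes, numbered 10, 144 and 9, and without them S100a4 gave 1.30 and S100a6 1.37, as over all macrophages. Listed monocyte markers summed to 975, 1231 and 1199 CPM in macrophages, and T/NK markers to 4.76, 54.1 and 4.01 CPM. Markers of other cell types that were likewise highest in Vehicle macrophages were those of stroma at 512, 557 and 349 CPM and of neutrophils at 132, 251 and 95.4. So were those of dendritic cells at 60.3, 152.9 and 68.1, endothelium at 9.38, 53.5 and 6.81 and basophils at 7.17, 33.4 and 13.01. Melanocyte markers, at most 0.836 CPM, were highest there too. The part of these markers in the S100 ratios was not tested.

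Other leukocytes did not move alike. Cells named by dendritic markers (148, 63 and 78 cells) had 257, 1458 and 283 CPM of S100a4 and 563, 2187 and 541 CPM of S100a6, high in Vehicle as in macrophages. T/NK cells (64, 240 and 50 cells) had 1222, 856 and 1816 CPM of S100a4, low in Vehicle, and 2555, 2439 and 2535 CPM of S100a6, with little difference between libraries.

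**Figure D5:**
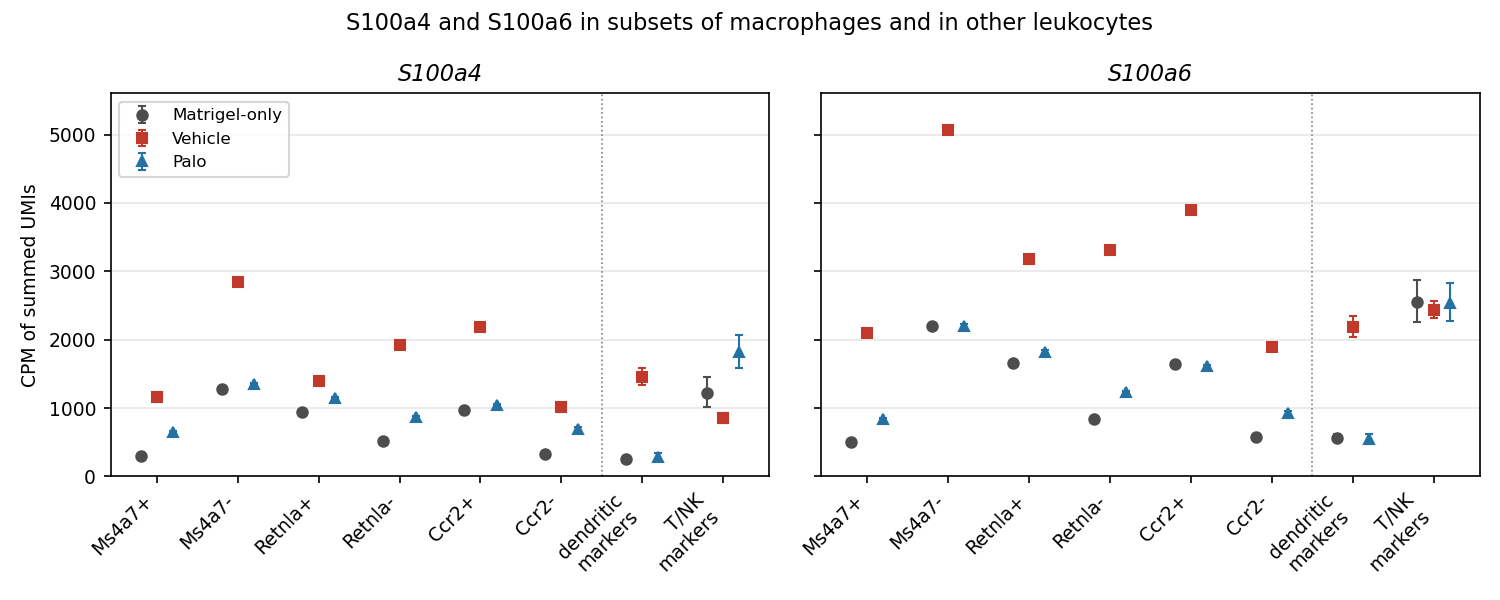
CPM of S100a4 and S100a6 in macrophages split by Ms4a7, Retnla and Ccr2 and, right of the dotted line, in cells named by dendritic or T/NK markers, 1 point per library with exact Poisson 95% intervals. Vehicle is the highest library in every macrophage subset and in dendritic cells. In T/NK cells it is the lowest for S100a4, while the S100a6 intervals of the libraries overlap.

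S100a8 and S100a9 stood highest in cells named by neutrophil markers. Macrophages still held 75.8%, 16.8% and 32.6% of the S100a8 UMIs in Matrigel-only, Vehicle and Palo. Cells with the most listed neutrophil markers numbered 11, 100 and 18, and in Vehicle they held 8055 CPM of S100a8 and 8814 CPM of S100a9. In Palo they held 2653 and 4141 CPM and in Matrigel-only 490 and 825 CPM, from 19 and 32 UMIs. The 11 Matrigel-only cells also carried 2655 CPM of stromal and 1005 CPM of adipocyte markers and had no Ly6g UMI, and 1 of the 11 had a UMI of S100a8 and 1 a UMI of S100a9. Stromal markers summed to 4572 CPM in the 18 Palo cells and to 891 in the 100 Vehicle cells. Neutrophil-marked cells held 78.5% (76.4 to 80.4) of all S100a8 UMIs in Vehicle and 64.7% (57.5 to 71.5) in Palo, against 15.8% of 120 UMIs in Matrigel-only.

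The S100a9 UMIs counted in macrophages sat largely in cells with at least 3 of the 10 neutrophil markers, and those of S100a8 did so in the Matrigel-only library but not in Palo. Such cells, 22, 64 and 31 in number, held 63 of 64, 217 of 238 and 11 of 12 macrophage S100a9 UMIs, and in Matrigel-only 1 cell held 63. For S100a8 they held 64 of 91, 131 of 274 and 2 of 62, and in Matrigel-only 1 cell held 63 of the 91. Without them S100a9 was at 0.0494, 1.51 and 0.0367 CPM, and S100a8 at 1.33, 10.3 and 2.20 CPM, still highest in Vehicle. The remaining UMIs were 143 of S100a8 to 21 of S100a9 in Vehicle, where neutrophil-marked cells held 1283 to 1404, so the ratio of the genes was not the same in the 2 kinds of cell. In Vehicle stroma, cells with at least 3 neutrophil markers held 60 of 69 S100a8 and 84 of 94 S100a9 UMIs, and 1 cell had 50 and 1 cell 64 of them. Whether such cells hold material of a neighbouring neutrophil was not tested.

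Of 25 listed partners and receptors of S100 proteins, 17 to 18 reached the level limit in a comparison. In stromal cells Fgf1 was lower in Vehicle than in Matrigel-only, beside 7.04% of all genes, and 0 passed in the other comparisons, and in macrophages Anxa6 was lower in Palo than in Vehicle, beside 3.30% of all genes, and 0 passed elsewhere. Within stroma Anxa2, the partner of S100a10, passed with S100a10 as higher in Aqp1+ cells of Matrigel-only (1.90% of all genes) and Palo (2.08%). Tpm1, a tropomyosin, was lower in Pi16+ cells of Matrigel-only (2.14% of all genes) and Palo (1.38%), beside S100a4. Stroma exceeded macrophages in Bsg, Myh10 and Tpm1 and fell below them in Tlr4, Cd36, Capza2 and Capzb in each of the 3 libraries. Between 17.9% and 19.6% of all genes were at least 2-fold higher in stroma there, and 14.2% to 16.4% lower.

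The genes whose levels ran most like a member were taken over 21 groups of cells and libraries from 7276 genes, as a description in which groups of 1 library share its depth and preparation. S100a9 was nearest to S100a8 (r = 0.99), and Ppp1r14b (0.93) and Lgals1 (0.90) to S100a6. The r of S100a8 and S100a9 rests largely on 1 group. Neutrophil-marked cells of Vehicle held 8055 and 8814 CPM, and all other groups at most 19.1 CPM of either gene. Piezo1 (0.81) was nearest to S100a4, Adamts14 (0.84) to S100a10, Arhgef40 (0.91) to S100a11 and Rras2 (0.90) to S100a13. Col4a5 (0.92) and Smoc2 (0.92) were nearest to S100b. Of the 8 other family symbols in the files, S100a16, named after its values were seen, measured 585, 218 and 514 CPM in stroma, low in Vehicle like S100a6.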

How the data were processed

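Per the labels, reads were processed with Cell Ranger 3.0.2 and Seurat 3 on mm10, and the authors deposited UMI counts per barcode and gene for each library with no normalization. From these counts, cells with 200 to 6000 genes and at most 5% mitochondrial UMIs were kept, which are the limits of the study's methods. The upper limit stood in for doublet removal, and no doublet caller was run. It was exceeded by 16 Matrigel-only, 104 Vehicle and 21 Palo barcodes. With no limit on genes the stromal cells numbered 2100, 1472 and 1205, against 2085, 1373 and 1184 with it. UMIs were summed per class and library and scaled to CPM. Ratios carry conditional exact binomial intervals, levels exact Poisson intervals and shares exact binomial intervals (95%), and UMIs of 1 cell are not independent. Shares were taken after thinning each cell to a depth near the 10th percentile of UMIs in the shallowest library (3100 UMIs for stroma, 1400 for macrophages), leaving out 54 to 207 stromal cells and 137 to 567 macrophages per library.

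With 1 library per group no p-value was computed, and a gene counted as called past 2-fold on log2(CPM + 5). Cells outside both classes took the type with the most listed markers detected, at least 2. All 9 members were named in every comparison, with the 3 genes most like each by Pearson's r and the partners past 2-fold, and the nearest gene to S100a1 is not reported here. The members and lists were chosen with earlier results of these data known. Scripts used Python 3.11.15, numpy 2.4.6 and scipy 1.17.1, edgeR 4.0.16 gave TMM factors, and the calculations were tested on simulated data. Alternatives covered class limits, cell filters, scaling, the added CPM and thinning, and the splits by further macrophage genes, Acan bins and marker carriers were added after the data were seen. Gene positions are from GENCODE on mm10 and sequences from RefSeq.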

Additional observations from a re-analysis of the deposited data

Results flagged for a closer look

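For 4 members the ratios over all stromal cells and over all macrophages pointed in opposite directions in both comparisons with Vehicle. These differences were not tested, since each group is 1 library. Stromal subsets did not all share this direction. With Pi16 alone, S100a4 (279, 688 and 286 CPM) and S100a6 (5172, 6472 and 5063) were highest in Vehicle, as in macrophages. In Aqp1- stromal cells S100a4 was highest in Vehicle too, at 373, 440 and 258 CPM. For Vehicle over Matrigel-only the log2 ratios in stromal cells and macrophages were -0.83 and 1.30 for S100a4, -0.996 and 1.37 for S100a6, -0.79 and 0.88 for S100a10, and -0.35 and 0.91 for S100a11. For Palo over Vehicle they were 0.91 and -0.87, 1.07 and -1.10, 0.94 and -0.72, and 0.48 and -0.39. S100a1 went the other way round, at 0.59 in stromal cells and -0.13 in macrophages for Vehicle over Matrigel-only and at -0.46 and 0.16 for Palo over Vehicle. S100a13 differed in sign for Palo over Matrigel-only, at -0.23 in stromal cells and 0.084 in macrophages, and the macrophage ratio turned to -0.023 with stromal cells that had Csf1r or C1qa counted as macrophages.

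Barcodes that failed the limits on genes or mitochondrial UMIs, which entered no comparison under the main limits, held S100a8 at 32.6 CPM and S100a9 at 23.6 CPM in Vehicle and S100a9 at 6.76 CPM in Palo, above the level in the same barcodes of Matrigel-only. The Palo value came from 15 UMIs in 1 barcode, and the Vehicle values from 15 barcodes for S100a8 and 7 for S100a9. Barcodes under 200 genes held 0 UMIs of either gene in all 3 libraries.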

How the results depend on the processing

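Over the other settings tried, 16 ratios of S100a4, S100a6, S100a10 and S100a11 against Vehicle kept their sign in all 200 values, and among 675 values over all members 8 changed sign, all for Palo over Matrigel-only (3 of S100a8 and 1 of S100a13 in macrophages, 1 each of S100a1, S100a4, S100a6 and S100a9 in stromal cells). No setting took stromal cells with Pi16 alone, with none of the 3 genes or without Aqp1 on their own. In each of these sets Vehicle was the high library for S100a4, and with Pi16 alone for S100a6 and S100a13 too (S100a13 at 561, 611 and 478 CPM). Vehicle was also above Matrigel-only for S100a10 with Pi16 alone, at 1224 against 1171 CPM. The same held for S100a11 with none of the 3 genes, at 1240 against 1209 CPM. In the other sets named here S100a10 and S100a11 were lower in Vehicle than in Matrigel-only. The counts of members past 2-fold did move. For Vehicle over Matrigel-only in stromal cells, 1 member (S100a6) was lower without cells with a Ptprc UMI, and 2 (S100a8 and S100a9) were higher without Acan+ cells or with no limit on genes per cell. In the same comparison 1 was higher with strata reweighted (S100a9), TMM (S100b), median-of-ratios scaling (S100b), a mean over cells (S100a9) or 1 CPM added (S100b). For Palo over Vehicle in stromal cells, 0 were higher without Acan+ cells, with no limit on genes, with strata reweighted or as a mean over cells, and 2, 3, 2 and 2 were lower in these settings, while 2 were lower at a stromal limit of 0.5% and 0 with 20 CPM added. In macrophages, 2 were higher in Vehicle when stromal cells with Csf1r or C1qa were counted as macrophages (S100a8 and S100a9, with S100a4 and S100a6 lost) or with 20 CPM added (S100a4 and S100a6), 1 was lower in Palo than in Vehicle with 20 CPM added, and 1 was lower in Palo than in Matrigel-only as a mean over cells. In the Aqp1 split of Vehicle, 2 were lower with cells positive for 1 gene only and 1 with at least 2 UMIs. In the Pi16 split, 0 were lower in Matrigel-only and in Palo with cells positive for 1 gene only, and 2 were higher in Vehicle with at least 2 UMIs. In the Acan split, 0 were higher with cells positive for 1 gene only. Shares of all genes past 2-fold were not computed at these other settings, so the counts are not read as a result about the members. The cause of these moves was not tested.

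With strata reweighted to Matrigel-only, Palo over Vehicle in stromal cells was 0.05 for S100a4 against 0.91. No paired analysis was possible because each group holds 1 library. Depth limits S100a8, S100a9 and S100b outside the Vehicle library, where stromal counts were at most 170 UMIs. It also limits S100a8 and S100a9 in Vehicle stroma, at 69 and 94 UMIs, of which the top cell held 50 and 64.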
